A study of Mus musculus with 9 samples.

Results

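The genes described here are 35 genes of the glycolytic pathway and of the cellular response to low oxygen, listed by symbol and matched by symbol in the count table. All 35 symbols were found, under 36 of the 55450 gene identifiers in the table, because Aldoa is carried by 2 identifiers. They were read in IMM cells, which are immortalized macrophages from mouse, all labelled WT for genotype, in 3 groups of 3 libraries: 0 min (no lipopolysaccharide, the control), 30 min and 60 min of lipopolysaccharide (LPS, 100 ng/mL). LPS is a component of the outer membrane of Gram-negative bacteria, and Tlr4 is its receptor on macrophages. All cells had gone through 5 passages after thawing and grew in the same medium with serum, and how the line was immortalized is not given in the sources used here. No library kept without LPS for 30 or 60 min was analysed here, so LPS, handling and elapsed time cannot be told apart.

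Glycolysis is the chain of enzymes that turns glucose into pyruvate, which is then either reduced to lactate or passed to the mitochondria. The transcription factor HIF1 is built from the oxygen-sensitive subunit Hif1a and its partner Arnt. In oxygen, prolyl hydroxylases (Egln1, Egln3) mark Hif1a for capture by Vhl and destruction, and in low oxygen the protein accumulates and raises the transcription of glycolytic enzymes and of effectors such as Vegfa and Bnip3. Macrophages are known to turn to lactate-producing glycolysis during activation by LPS, a shift in which HIF1 has a known part. The protein level of Hif1a was not measured here, only RNA.

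The libraries held 26867428 to 30402308 counts each, and the first principal component, 44.2% of the variance, ordered them by time. Macrophage markers were abundant in every library, with a summed level of 1787 to 1904 CPM (counts scaled to the library total), and all 7 were detected. Markers of other cell types were low, with group means of at most 13.5 CPM (the endothelial list gene Vwf), and S100a9, Ly6g, Cd3e, Cd8a, Ms4a1, Col3a1, Pdgfra, Dcn and Krt8 were at 0 in all libraries. The endothelial list summed to 9.86 to 14.3 CPM at 0 min, 13.8 to 15.9 CPM at 30 min and 14.0 to 14.9 CPM at 60 min, and the dendritic cell list to 17.1 to 18.1, 16.4 to 18.6 and 13.7 to 15.4 CPM. The part of these cell types in the results was not tested. The series' design text calls the libraries of a time biological replicates, and the labels give no batch. Among the 34 genes that could be tested, 0 min replicate 2 was the lowest library of its time for 27 and 30 min replicate 3 for 22, so results against 0 min are also given without single libraries where this changed them.

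Of the 35 genes, 34 passed the filter on low counts. Among them 12 were higher and 0 lower at 30 min than at 0 min, or 35.3% higher, where 4.84% of all 14246 genes tested were called higher and 3.35% lower (edgeR quasi-likelihood test, Benjamini-Hochberg adjusted p under 0.05). Without adjustment 0 were lower at a p under 0.05, and by limma-voom and DESeq2 0 were lower too. At 60 min against 0 min 12 were higher and 1 was lower, 35.3% and 2.94%, beside 13.3% and 11.7% of all genes. At 60 min against 30 min 2 were higher and 3 lower, 5.88% and 8.82%, beside 8.87% and 7.65% of all genes, so these shares were near the background. The comparisons with 0 min use the same 3 control libraries, so their counts are not separate lines of evidence. The median level of the 34 genes was 74.0 CPM, beside 19.2 CPM for all genes tested. These shares were not matched for level, and smaller changes can pass at higher counts. With 0 min replicate 2 left out, the calls were 9 higher and 0 lower for 30 min. For 60 min they were 8 higher and 1 lower. Of all 14457 genes tested in that fit, 532 were higher and 321 lower at 30 min, and 1773 and 1502 at 60 min. The median log2 change of the 34 genes was 0.13 at 30 min, 0.11 at 60 min and -0.04 between 30 and 60 min, and that of all genes tested was 0.01, 0.00 and 0.00. Calls depended on scaling. By total counts alone 9 were higher and 0 lower at 30 min, and 7 were higher and 2 lower at 60 min. Between 30 and 60 min 1 was then higher and 5 lower. Of all 14246 genes, this scaling called 551 higher and 649 lower at 30 min, and 1313 and 3048 at 60 min. Between 30 and 60 min it called 1005 higher and 1672 lower. The main fit called 689 and 477 of all genes at 30 min, and 1891 and 1671 at 60 min. In RNA from whole dishes, fewer cells that express a gene and less of its RNA per cell cannot be told apart.

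**Figure D1:**
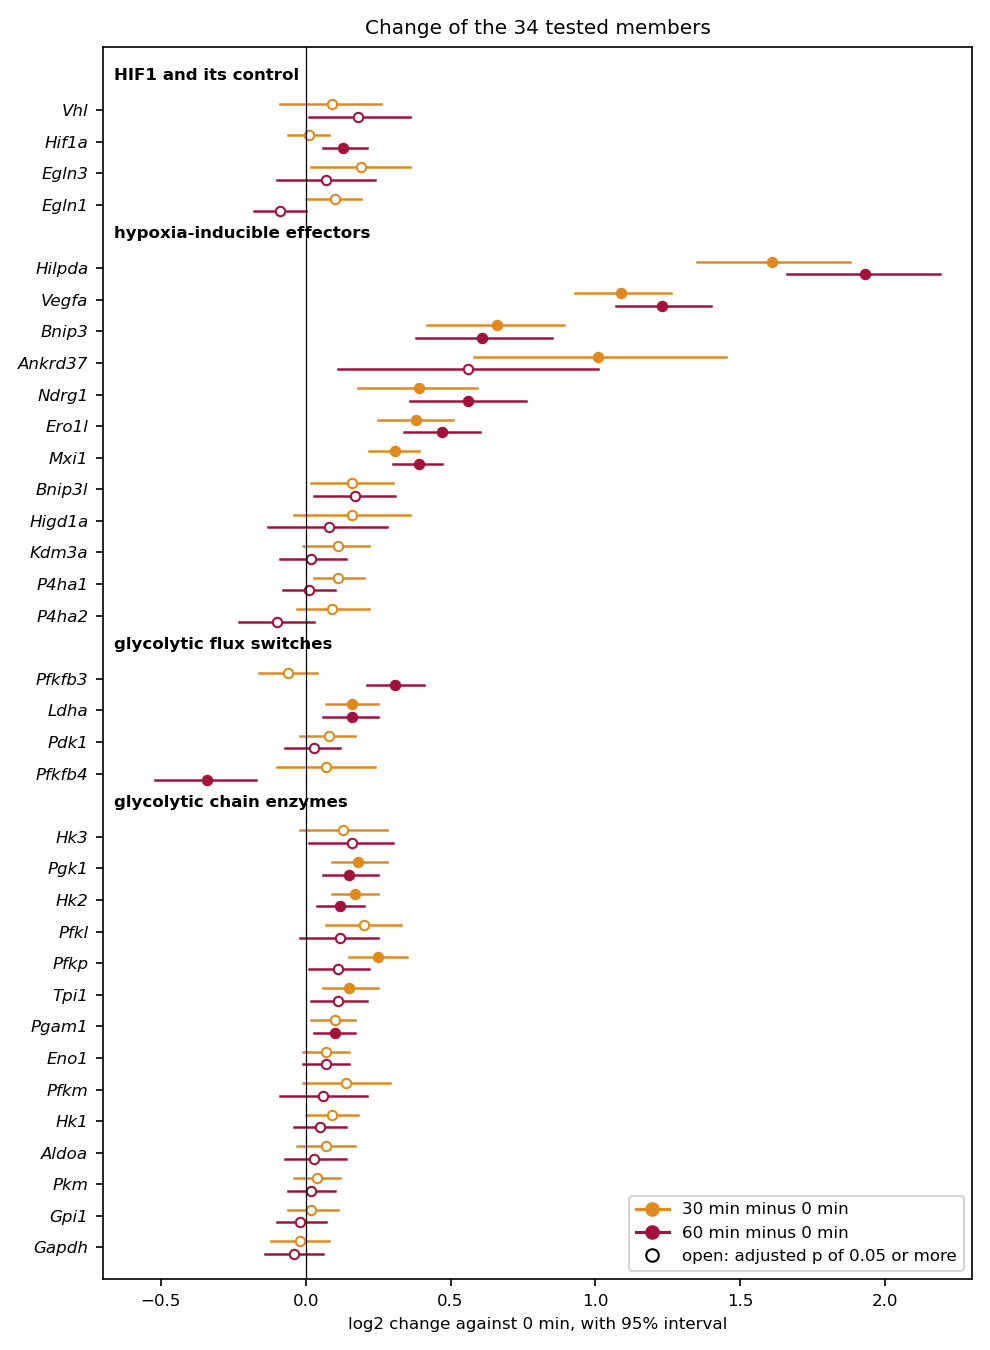
Log2 change against 0 min of the 34 tested genes at 30 min (orange) and 60 min (red), with 95% intervals, grouped by role; filled points have an adjusted p under 0.05. The hypoxia-inducible effectors reach 1.93 (Hilpda at 60 min), and the glycolytic chain enzymes lie between -0.04 and 0.25.

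The hypoxia-inducible effectors held the largest changes. Of 13 genes, 12 could be tested, and 7 were higher at 30 min and 6 at 60 min, with 0 lower at either time. Of all genes tested, 4.84% were higher and 3.35% lower at 30 min, and 13.3% and 11.7% at 60 min. The median log2 change of the 12 effectors was 0.34 at 30 min and 0.43 at 60 min. The level of the 13 genes summed to 470.7 ± 27.2 CPM at 0 min, 595.8 ± 31.9 CPM at 30 min and 608.2 ± 16.4 CPM at 60 min (SD, n = 3 each).

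Hilpda encodes a lipid-droplet protein that restrains the breakdown of stored fat. The gene (ENSMUSG00000043421.8, chr6:29272488-29275446, plus strand, mm10) had 4.51, 4.32 and 5.13 CPM at 0 min, 17.0, 11.8 and 14.1 CPM at 30 min and 18.6, 16.8 and 17.8 CPM at 60 min. Every LPS library lay above every 0 min library. Hilpda rose 3.07-fold at 30 min (log2 change 1.61, SE 0.12, adjusted p 6.42e-07) and 3.81-fold at 60 min (1.93, SE 0.12, adjusted p 2.6e-08). The libraries of 60 and 30 min overlapped, with a log2 difference of 0.31 (95% interval 0.08 to 0.55, adjusted p 0.0707). That difference passed the threshold by DESeq2 (adjusted p 0.0494) and limma-voom (0.045), and without 30 min replicate 1 it was 0.46 (0.00583).

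Vegfa encodes the growth factor that draws new blood vessels into tissue. The gene (ENSMUSG00000023951.17, chr17:46016993-46032369, minus strand) had 29.7, 25.0 and 28.2 CPM at 0 min, 65.8, 58.0 and 53.0 CPM at 30 min and 68.0, 64.9 and 61.8 CPM at 60 min. The lowest LPS library was well above the highest 0 min library. Vegfa rose 2.13-fold at 30 min (log2 change 1.09, SE 0.08, adjusted p 2.39e-07) and 2.35-fold at 60 min (1.23, SE 0.08, adjusted p 1.77e-08). Its levels at 60 and 30 min overlapped, with a log2 difference of 0.14 (95% interval -0.01 to 0.29), which passed the threshold without 30 min replicate 1 (0.23, adjusted p 0.0339).

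Bnip3 encodes a receptor on the outer mitochondrial membrane that directs mitochondria to autophagy. The gene (ENSMUSG00000078566.8, chr7:138890836-138909519, minus strand) had 16.3, 12.7 and 13.7 CPM at 0 min, 23.6, 24.7 and 18.9 CPM at 30 min and 23.5, 22.0 and 19.9 CPM at 60 min. All LPS libraries again lay above all 0 min libraries. The log2 change was 0.66 at 30 min (SE 0.11, adjusted p 0.00132) and 0.61 at 60 min (SE 0.11, adjusted p 0.000746). Its relative Bnip3l, a mitophagy receptor too, averaged 46.1 ± 4.48 CPM at 0 min, 51.5 ± 1.97 CPM at 30 min and 51.9 ± 3.5 CPM at 60 min (SD, n = 3 each). The log2 changes of Bnip3l were 0.16 and 0.17 and did not pass (adjusted p 0.173 and 0.0745). Without 0 min replicate 3 the 60 min change of Bnip3l passed (0.23, adjusted p 0.0345), as it did without the filter on low counts (0.00781). In total, 16.6% of the 50-base windows of Bnip3 and 20.8% of those of Bnip3l also occur in transcripts of other genes, so their counts depend on how such reads were shared out.

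The promoters of these 3 leading effectors are printed to show where the core letters of the HIF1 binding motif fall. Each window holds the 250 bases before and 50 after 1 annotated start (RefSeq, GRCm38.p6). Hilpda and Vegfa have 2 annotated starts each, and the one nearest the start of the gene was used. The search was for ACGTG or GCGTG on either strand, so that CACGT and CACGC are hits of the other strand, and CACGTG counts on both. Capitals mark the hits.
Hilpda: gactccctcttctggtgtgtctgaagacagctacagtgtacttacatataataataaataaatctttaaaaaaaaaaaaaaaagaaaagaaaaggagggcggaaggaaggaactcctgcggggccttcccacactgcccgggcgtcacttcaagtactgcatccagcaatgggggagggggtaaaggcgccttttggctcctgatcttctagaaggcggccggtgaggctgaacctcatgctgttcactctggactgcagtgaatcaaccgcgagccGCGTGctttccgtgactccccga
Vegfa: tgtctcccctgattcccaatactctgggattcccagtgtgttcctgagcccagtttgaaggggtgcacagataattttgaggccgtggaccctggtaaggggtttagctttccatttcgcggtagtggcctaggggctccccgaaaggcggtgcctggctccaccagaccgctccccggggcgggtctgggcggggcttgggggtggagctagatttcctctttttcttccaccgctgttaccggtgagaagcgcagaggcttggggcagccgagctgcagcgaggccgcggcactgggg
Bnip3: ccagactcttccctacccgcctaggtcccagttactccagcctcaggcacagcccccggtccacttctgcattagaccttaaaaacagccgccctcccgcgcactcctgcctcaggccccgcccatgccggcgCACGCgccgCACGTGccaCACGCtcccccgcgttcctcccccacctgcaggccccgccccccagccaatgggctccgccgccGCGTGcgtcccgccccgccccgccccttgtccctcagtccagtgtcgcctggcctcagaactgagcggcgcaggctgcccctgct
The Hilpda window (chr6:29272238-29272537, plus strand) holds 1 hit, 27 bases after the start. The Vegfa window (chr17:46032328-46032627, minus strand) holds 0. The Bnip3 window (chr7:138909457-138909756, minus strand) holds 5, of which 2 are the strands of 1 CACGTG. Promoters of 33 of the 35 genes were matched, 1 per gene, and 25 of these (75.8%) hold ACGTG or GCGTG. Of all 32851 promoters in the RefSeq table, where a gene can have more than 1, 43.8% do. ACGTG stands in 51.5% and 19.6%, GCGTG in 54.5% and 32.4%, and CACGTG in 12.1% and 7.15%. Among the genes called higher at 30 or 60 min 11 of 14 promoters (78.6%) hold a core, and among those called at neither time 12 of 17 (70.6%). These are matches of letters in a short window, with no measure of binding.

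Ankrd37, an ankyrin-repeat gene known as a HIF1 target, had the fewest counts of the 34 tested genes. The gene (ENSMUSG00000050914.16, chr8:45996902-46005707, minus strand) had 2.02, 1.34 and 2.17 CPM at 0 min, 4.61, 3.75 and 2.82 CPM at 30 min and 2.84, 2.81 and 2.51 CPM at 60 min. It rose at 30 min (2.02-fold, log2 change 1.01, SE 0.20, adjusted p 0.0057). At 60 min its libraries still lay above those of 0 min, with a log2 difference of 0.56 (95% interval 0.11 to 1.01) that did not pass (adjusted p 0.0662). The 60 min call was reached without 30 min replicate 1 (adjusted p 0.0456) or replicate 3 (0.0428), and the difference of 60 min from 30 min (log2 -0.45, adjusted p 0.137) passed without 30 min replicate 3 (-0.62, 0.0462). The antisense neighbour Lrp2bp covers 22.7% of its exons and stayed at or under 0.164 CPM in the group means. A further antisense neighbour, Ufsp2, covers 3.7% of the Ankrd37 exons and averaged 57.8, 57.4 and 59.0 CPM at 0, 30 and 60 min. Whether reads of Ufsp2 entered the Ankrd37 counts was not tested.

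Ndrg1, a stress-responsive gene induced by low oxygen, had 36.5, 25.6 and 34.2 CPM at 0 min, 43.7, 43.1 and 39.1 CPM at 30 min and 46.3, 48.4 and 47.2 CPM at 60 min (ENSMUSG00000005125.13, chr15:66929318-66969640, minus strand). It rose at 30 min (log2 change 0.39, SE 0.09, adjusted p 0.02) and at 60 min (0.56, SE 0.09, adjusted p 0.000447). The 0 min libraries were spread by a low replicate 2, and all LPS libraries lay above them. The call at 30 min ended without 30 min replicate 1 (adjusted p 0.0666) or replicate 2 (0.0706).

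Ero1l and Mxi1 rose in every LPS library. Ero1l encodes the oxidase that drives disulfide bond formation in the endoplasmic reticulum, and averaged 93.9 ± 6.88 CPM at 0 min, 122 ± 7.37 CPM at 30 min and 130 ± 9.07 CPM at 60 min (SD, n = 3 each). Its log2 change was 0.38 at 30 min and 0.47 at 60 min (adjusted p 0.00108 and 4.37e-05). Mxi1 encodes an antagonist of the transcription factor Myc, and averaged 65.1 ± 1.73 CPM at 0 min, 80.5 ± 3.17 CPM at 30 min and 85.0 ± 1.26 CPM at 60 min. Its log2 change was 0.31 and 0.39 (adjusted p 0.000101 and 3.39e-06). When a change had to exceed 1.2-fold, 4 genes were called at 30 min (Hilpda, Vegfa, Bnip3, Ankrd37) and 6 at 60 min (Hilpda, Vegfa, Bnip3, Ndrg1, Ero1l, Mxi1), all of them effectors. Of all 14246 genes, 290 were then called higher at 30 min and 762 at 60 min.

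The remaining effectors differed little from 0 min. Kdm3a, a histone demethylase, averaged 44.7 ± 2.67 CPM at 0 min, 48.0 ± 2.6 CPM at 30 min and 45.4 ± 1.46 CPM at 60 min (SD, n = 3 each). Higd1a, a small protein of the inner mitochondrial membrane, averaged 17.5 ± 1.56, 19.6 ± 1.11 and 18.5 ± 2.52 CPM at 0, 30 and 60 min. The log2 changes were 0.11 and 0.02 for Kdm3a and 0.16 and 0.08 for Higd1a at 30 and 60 min, and none passed. P4ha1 and P4ha2, the catalytic subunits of collagen prolyl hydroxylase, differed by 0.11 and 0.09 at 30 min and by 0.01 and -0.10 at 60 min on the log2 scale, and none of these passed either. P4ha2 averaged 18.9 ± 1.15 CPM at 60 min and 21.6 ± 0.73 CPM at 30 min (SD, n = 3 each), a fall (log2 -0.19, adjusted p 0.0449) that was lost by DESeq2 (0.107) and in 7 of the 9 fits that left out 1 library. Those were the fits without 0 min replicate 1 or 3, any 30 min replicate, or 60 min replicate 1 or 3 (adjusted p 0.0593 to 0.161). Adm, which encodes the vasodilator peptide adrenomedullin, was not tested: it had 0 counts at 0 min, 3 counts in 1 library at 30 min and 1 count at 60 min. A count of 0 at 0 min allows a level of up to 0.0354 CPM over the 3 libraries, and the later levels do not exceed such a floor.

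**Figure D2:**
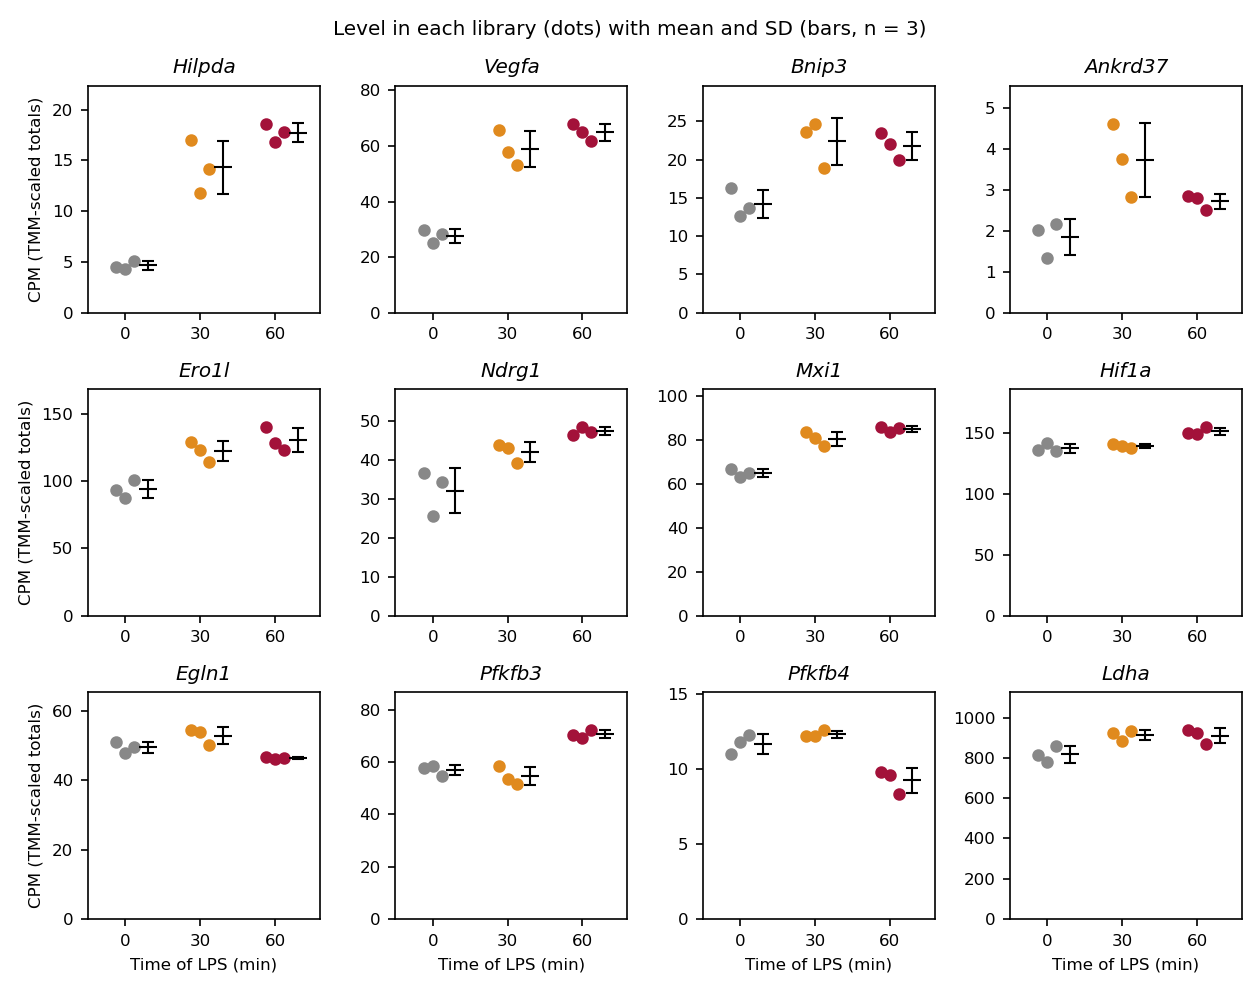
Level of 12 genes in each library (dots, CPM with TMM-scaled totals) at 0, 30 and 60 min of LPS, with the mean and SD of each time (bars, n = 3). Hilpda and Vegfa separate the LPS libraries from 0 min, Pfkfb3 and Pfkfb4 move apart at 60 min, and Hif1a spans 135 to 155 CPM.

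Hif1a and the genes that control it differed little in RNA between the times. Of these 4 genes 0 were called at 30 min (2 were higher without adjustment at 0.05, 0 were called by limma-voom or DESeq2), and 1 was higher at 60 min. The share higher at 60 min was 25.0%, beside 13.3% of all genes. Hif1a (ENSMUSG00000021109.13, chr12:73901375-73947530, plus strand) had 136, 142 and 135 CPM at 0 min, 141, 139 and 138 CPM at 30 min and 150, 149 and 155 CPM at 60 min. The 30 min libraries overlapped those of 0 min (log2 change 0.01, 95% interval -0.06 to 0.08), and the 60 min libraries lay above both. Hif1a rose 1.10-fold at 60 min against 0 min (log2 change 0.13, SE 0.03, adjusted p 0.00844) and 1.09-fold against 30 min (0.12, SE 0.03, adjusted p 0.0221). Both calls ended by total counts alone (adjusted p 0.145 and 0.11). The call against 30 min also ended without 30 min replicate 2 (0.0782) or 3 (0.081), or 60 min replicate 1 (0.0509) or 3 (0.0663).

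Egln1, the main prolyl hydroxylase of Hif1a, had 51.1, 47.8 and 49.7 CPM at 0 min, 54.5, 54.1 and 50.1 CPM at 30 min and 46.7, 46.2 and 46.6 CPM at 60 min (ENSMUSG00000031987.6, chr8:124908587-124949324, minus strand). The 60 min libraries were below all others. Egln1 fell at 60 min against 30 min (log2 -0.19, SE 0.04, adjusted p 0.00702), and the difference at 60 min against 0 min was -0.09 (95% interval -0.18 to 0.00, adjusted p 0.14). By total counts alone the difference from 0 min was -0.16 (adjusted p 0.0129), so that among these 4 genes 0 were then higher and 1 lower at 60 min. Egln3, a hydroxylase that is itself induced by HIF1 in many cells, averaged 18.3 ± 2.05 CPM at 0 min, 20.9 ± 1.4 CPM at 30 min and 19.2 ± 0.387 CPM at 60 min (SD, n = 3 each). It had log2 changes of 0.19 at 30 min and 0.07 at 60 min, and neither passed. Vhl, the part of the ubiquitin ligase that recognises hydroxylated Hif1a, had 9.86, 9.84 and 9.35 CPM at 0 min, 11.3, 9.89 and 9.68 CPM at 30 min and 10.7, 11.7 and 10.5 CPM at 60 min (ENSMUSG00000033933.13, chr6:113623959-113631633, plus strand). The 60 min libraries were above those of 0 min, with a log2 difference of 0.18 (95% interval 0.01 to 0.36) that did not pass (adjusted p 0.128).

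Of the 4 enzymes that set the flow through glycolysis and the fate of pyruvate, 1 was higher and 0 lower at 30 min (Ldha), and 2 were higher (Pfkfb3, Ldha) and 1 lower (Pfkfb4) at 60 min. The sister enzymes Pfkfb3 and Pfkfb4 thus moved in opposite directions at 60 min. Pfkfb3 and Pfkfb4 both make and remove the sugar phosphate which activates phosphofructokinase; Pfkfb3 is the isoform with the strongest bias towards making it. Pfkfb3 (ENSMUSG00000026773.19, chr2:11471433-11554077, minus strand) had 57.6, 58.4 and 54.7 CPM at 0 min, 58.6, 53.6 and 51.7 CPM at 30 min and 70.4, 69.3 and 72.2 CPM at 60 min. Levels at 30 and 0 min overlapped (log2 change -0.06, 95% interval -0.16 to 0.04), and all 60 min libraries were higher. Pfkfb3 rose 1.24-fold at 60 min against 0 min (log2 change 0.31, SE 0.05, adjusted p 0.000182) and 1.29-fold against 30 min (0.37, SE 0.05, adjusted p 7.1e-05).

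Pfkfb4 (ENSMUSG00000025648.18, chr9:108991778-109032228, plus strand) had 11.0, 11.8 and 12.3 CPM at 0 min, 12.2, 12.2 and 12.6 CPM at 30 min and 9.82, 9.63 and 8.32 CPM at 60 min. All 60 min libraries were below all others. Pfkfb4 fell at 60 min, to 0.79 of its 0 min level (log2 -0.34, SE 0.08, adjusted p 0.00642) and to 0.75 of its 30 min level (-0.41, SE 0.08, adjusted p 0.00246). The calls of Pfkfb3 and Pfkfb4 held in each of the 9 fits without 1 library, and ended when a change had to exceed 1.2-fold (adjusted p 0.0818 to 0.416).

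Ldha encodes the subunit of lactate dehydrogenase that favours the making of lactate. The gene (ENSMUSG00000063229.15, chr7:46841475-46855627, plus strand) had 815, 777 and 858 CPM at 0 min, 921, 883 and 931 CPM at 30 min and 937, 923 and 869 CPM at 60 min. All LPS libraries were above all 0 min libraries, by a small margin. Ldha rose 1.12-fold at 30 min (log2 change 0.16, SE 0.04, adjusted p 0.0365) and 1.11-fold at 60 min (0.16, SE 0.04, adjusted p 0.0168). The 30 min call ended without 0 min replicate 1 or 2, 30 min replicate 1 or 3, or 60 min replicate 1 (adjusted p 0.0519 to 0.14), and the 60 min call without 0 min replicate 1 or 2, or 60 min replicate 1 or 2 (0.0512 to 0.0878). By total counts alone neither passed (0.0988 and 0.17), which left 1 higher and 1 lower of these 4 genes at 60 min, against 2 and 1. Pdk1, the kinase that holds pyruvate dehydrogenase inactive, averaged 101 ± 3.58 CPM at 0 min, 107 ± 4.57 CPM at 30 min and 103 ± 3.82 CPM at 60 min (SD, n = 3 each), with log2 changes of 0.08 and 0.03 that did not pass.

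The promoters of the flow-setting genes that were called are printed in the same way, since these genes differed in direction. Pfkfb3 and Ldha have 2 annotated starts each, and the one nearest the start of the gene was used.
Pfkfb3: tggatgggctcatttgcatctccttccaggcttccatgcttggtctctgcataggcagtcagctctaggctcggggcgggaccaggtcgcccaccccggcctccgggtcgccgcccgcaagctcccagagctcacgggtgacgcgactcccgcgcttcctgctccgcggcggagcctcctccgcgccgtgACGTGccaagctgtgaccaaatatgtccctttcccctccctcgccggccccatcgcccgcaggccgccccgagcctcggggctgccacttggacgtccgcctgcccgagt
Pfkfb4: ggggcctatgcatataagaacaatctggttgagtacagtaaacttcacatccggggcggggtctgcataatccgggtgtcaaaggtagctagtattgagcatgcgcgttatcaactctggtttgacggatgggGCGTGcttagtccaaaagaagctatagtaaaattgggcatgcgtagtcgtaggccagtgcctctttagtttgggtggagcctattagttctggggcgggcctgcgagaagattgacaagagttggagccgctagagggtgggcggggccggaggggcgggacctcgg
Ldha: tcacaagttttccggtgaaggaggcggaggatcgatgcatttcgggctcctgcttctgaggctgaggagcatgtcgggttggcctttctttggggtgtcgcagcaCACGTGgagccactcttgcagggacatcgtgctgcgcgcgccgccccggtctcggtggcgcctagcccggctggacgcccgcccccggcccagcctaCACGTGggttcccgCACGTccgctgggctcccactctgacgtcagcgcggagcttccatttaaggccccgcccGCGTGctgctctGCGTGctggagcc
The Pfkfb3 window (chr2:11553880-11554179, minus strand) holds 1 ACGTG, 60 bases before the start. The Pfkfb4 window (chr9:108991652-108991951, plus strand) holds 1 GCGTG, 117 bases before the start. The Ldha window (chr7:46845554-46845853, plus strand) holds 7 hits, which include 2 CACGTG with a hit on each strand, and its RefSeq start lies inside the wider gene given above. The windows of Pfkfb4, which fell at 60 min, and of Pfkfb3, which rose, each hold 1 core, and that of Vegfa holds 0. Sites outside these windows were not searched, and the part of the cores in the changes was not tested.

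The 14 enzymes of the glycolytic chain were abundant and differed by small amounts. At 30 min 4 were higher (Hk2, Pfkp, Pgk1, Tpi1) and at 60 min 3 were higher (Hk2, Pgk1, Pgam1). These are 28.6% and 21.4% of the chain, beside 4.84% and 13.3% of all genes tested. None of the 14 was lower at either time, by edgeR, DESeq2 or limma-voom, nor was any at an unadjusted p under 0.05. The median log2 change was 0.11 at 30 min and 0.08 at 60 min. By total counts alone 2 were called at 30 min and 0 at 60 min, the 60 min median was 0.02, and 8 of 14 differences at 60 min were above 0, against 12 of 14 with TMM scaling. The summed level of the chain was 8504 ± 353 CPM at 0 min, 8826 ± 114 CPM at 30 min and 8661 ± 190 CPM at 60 min (SD, n = 3 each). These ranges overlapped.

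The hexokinases Hk1, Hk2 and Hk3 trap glucose in the cell by phosphorylation. Hk2, the isoform induced in many activated and growing cells, averaged 188 ± 1.14 CPM at 0 min, 212 ± 5.68 CPM at 30 min and 205 ± 8.77 CPM at 60 min (SD, n = 3 each). It rose by a log2 change of 0.17 at 30 min (SE 0.04, adjusted p 0.00847) and 0.12 at 60 min (SE 0.04, adjusted p 0.0296). The 60 min call of Hk2 ended without any one of the 0 min replicates, or 60 min replicate 1 or 2 (adjusted p 0.0639 to 0.152). Hk1 had log2 changes of 0.09 and 0.05 and Hk3 of 0.13 and 0.16 at 30 and 60 min, none of which passed. The Hk3 changes passed at 30 min (0.22, adjusted p 0.0487) and 60 min (0.25, adjusted p 0.0108) without 0 min replicate 3, the highest of its time.

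Phosphofructokinase, the committed step, has the isoforms Pfkl, Pfkm and Pfkp. Pfkp averaged 138 ± 11.1 CPM at 0 min, 164 ± 2.65 CPM at 30 min and 149 ± 0.853 CPM at 60 min (SD, n = 3 each), and rose at 30 min (log2 change 0.25, SE 0.05, adjusted p 0.00379). At 60 min its libraries lay between those of 0 and 30 min, with a log2 difference from 0 min of 0.11 (95% interval 0.01 to 0.22, adjusted p 0.105) and from 30 min of -0.14 (-0.24 to -0.04, adjusted p 0.0621). The difference from 30 min passed by DESeq2 (adjusted p 0.044) and without 0 min replicate 2 (0.00474). Pfkl, at 57.4 ± 4.23 CPM at 0 min, 66.0 ± 2.27 CPM at 30 min and 62.2 ± 5.13 CPM at 60 min, differed by 0.20 on the log2 scale at 30 min (adjusted p 0.0653) and passed by DESeq2 (0.0401) and without 60 min replicate 3 (0.0327, and 0.0392 at 60 min). Pfkm differed by 0.14 and 0.06 and did not pass.

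Of the later steps, Pgk1, Tpi1 and Pgam1 held calls. Pgk1, the kinase that forms the first ATP of the chain, averaged 347 ± 19.8 CPM at 0 min, 394 ± 1.76 CPM at 30 min and 386 ± 18.7 CPM at 60 min (SD, n = 3 each), with log2 changes of 0.18 (adjusted p 0.02) and 0.15 (0.0197). Tpi1, which interconverts the triose phosphates, averaged 309 ± 19.5, 344 ± 6.99 and 335 ± 7.09 CPM at 0, 30 and 60 min, with log2 changes of 0.15 (adjusted p 0.0393) and 0.11 (0.0667). Pgam1, the phosphoglycerate mutase, averaged 538 ± 10.9, 575 ± 10.8 and 577 ± 14.5 CPM, with log2 changes of 0.10 (0.101) and 0.10 (0.0419). These calls were fragile. The Pgk1 calls ended without 0 min replicate 1 or 2 or any 30 min replicate at 30 min (adjusted p 0.054 to 0.0776), and without 0 min replicate 1 or 2 or 60 min replicate 1 or 2 at 60 min (0.0594 to 0.118). The Tpi1 call at 30 min ended without 0 min replicate 2, any 30 min replicate, or 60 min replicate 1 or 2 (0.0564 to 0.134), and its 60 min difference passed without 0 min replicate 1 (0.0492) and by DESeq2 (0.0458), which called 4 chain enzymes at 60 min and 5 at 30 min. The Pgam1 call at 60 min ended in each of the 9 fits without 1 library (0.0545 to 0.151).

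Gapdh, the oxidising step, had 2540, 2340 and 2380 CPM at 0 min, 2400, 2490 and 2290 CPM at 30 min and 2270, 2320 and 2470 CPM at 60 min (ENSMUSG00000057666.18, chr6:125161715-125166467, minus strand). The 3 times overlapped, with log2 differences of -0.02 (95% interval -0.12 to 0.08) and -0.04 (-0.14 to 0.06). Pkm, the pyruvate kinase of the last step, had 1930, 1800 and 1870 CPM at 0 min, 1920, 1910 and 1930 CPM at 30 min and 1860, 1900 and 1910 CPM at 60 min (ENSMUSG00000032294.17, chr9:59656368-59679375, plus strand). Its differences of 0.04 (-0.04 to 0.12) and 0.02 (-0.06 to 0.10) did not pass. Gpi1, Aldoa and Eno1, the isomerase, aldolase and enolase, differed by 0.02 to 0.07 at 30 min and by -0.02 to 0.07 at 60 min, with no call. Across all chain enzymes not called, the 95% intervals lay within -0.12 to 0.33 at 30 min and -0.14 to 0.30 at 60 min, so changes larger than these bounds were not seen. Gene copies limit these values: 53.9% of the 50-base windows of Pgk1, 36.2% of Pgam1, 25.8% of Pkm and 24.7% of Gapdh also occur in other genes, where the division of reads is uncertain. The share of Eno1 lies between those of Pgam1 and Pkm. For Hilpda, Ankrd37, Hk1, Hk2, Hk3 and Pfkp this share was 0%.

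**Figure D3:**
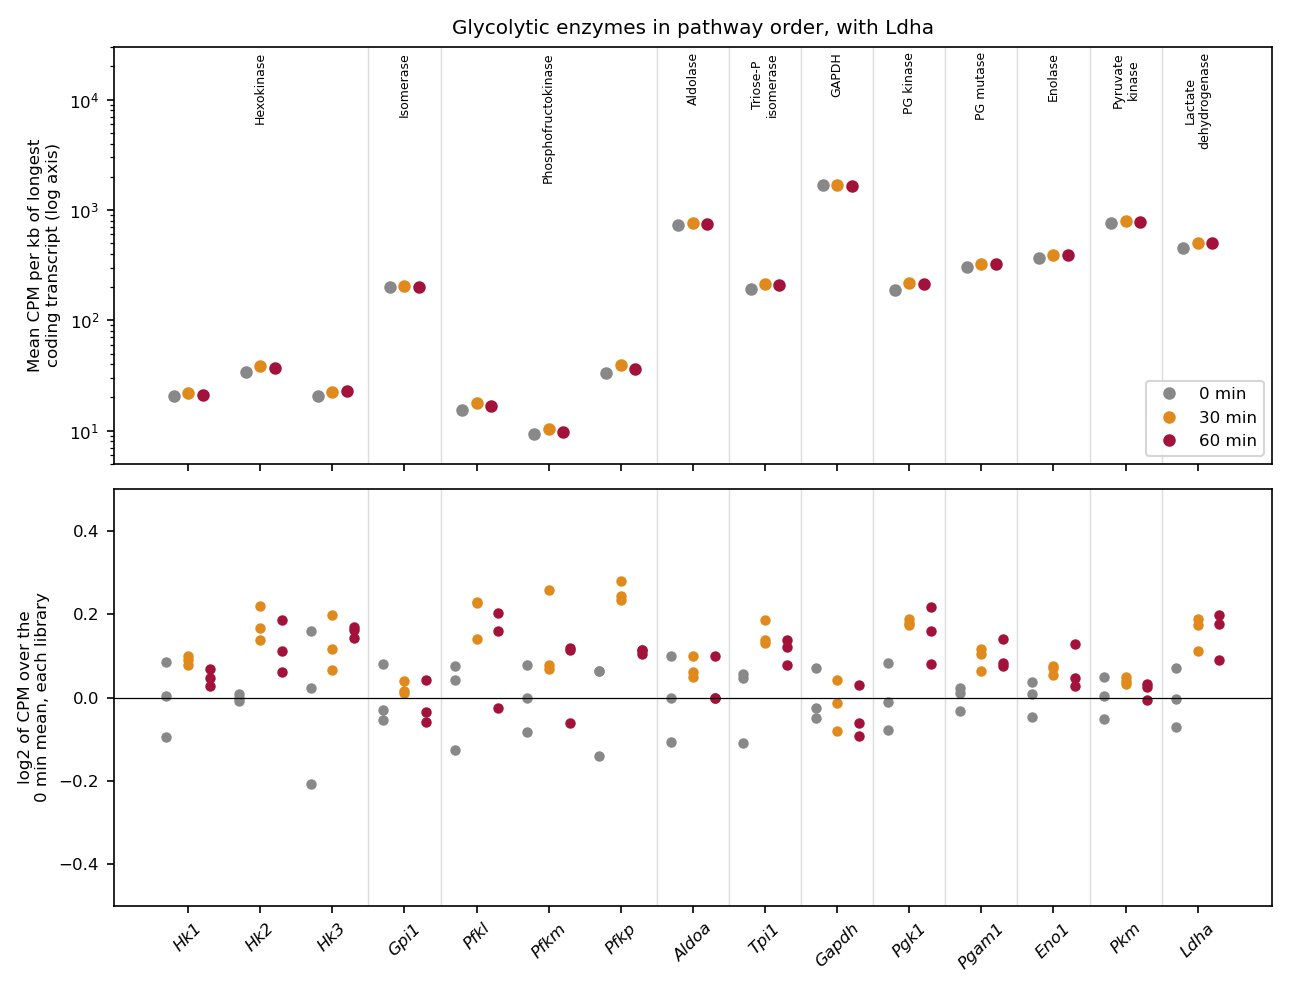
Top, mean level per kb of the longest coding transcript (log axis) of the chain enzymes and Ldha in pathway order at 0, 30 and 60 min; bottom, log2 of the CPM of each library (dots) over the 0 min mean. Levels run from 9.37 (Pfkm) to 1700 CPM per kb (Gapdh) at 0 min, and the libraries of Gapdh at 30 and 60 min lie on both sides of its 0 min mean.

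Per kb of transcript, the steps of the chain differed far more than the times did. At 0 min the level was 1700 CPM per kb for Gapdh, 767 for Pkm, 729 for Aldoa and 450 for Ldha. The hexokinases stood at 34.2 (Hk2), 20.7 (Hk3) and 20.5 CPM per kb (Hk1), and the phosphofructokinases at 33.2 (Pfkp), 15.4 (Pfkl) and 9.37 CPM per kb (Pfkm). Hk2 was thus the highest hexokinase and Pfkm the lowest phosphofructokinase, also when the exon bases of all transcripts were used as the length. These values are levels, and the sequences shared with gene copies touch the abundant ones most.

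Some of the carriers that bring in glucose and release lactate, which are not among the 35 genes, changed as well. Of the 10 in the list, which also holds Txnip, 9 were tested: 3 were higher and 1 lower at 30 min, and 3 were higher and 1 lower at 60 min. These are 33.3% higher and 11.1% lower at each time, beside 4.84% and 3.35% of all genes at 30 min and 13.3% and 11.7% at 60 min. The other 5 were not called, and the median log2 change of the list was 0.07 at 30 min and 0.02 at 60 min (-0.05 at 60 min by total counts alone). Slc2a1, the widespread glucose carrier and a textbook HIF1 target, had 86.0, 76.2 and 79.9 CPM at 0 min, 102, 97.5 and 93.9 CPM at 30 min and 119, 120 and 132 CPM at 60 min. The 3 times did not overlap. Slc2a1 rose by a log2 change of 0.28 at 30 min (SE 0.05, adjusted p 0.00386) and 0.61 at 60 min (SE 0.05, adjusted p 7.06e-07), and between 30 and 60 min by 0.33 (adjusted p 0.000445). Slc2a6, a glucose carrier family protein of lysosomes, averaged 47.4 CPM at 0 min, 76.2 CPM at 30 min and 111 CPM at 60 min (log2 changes 0.68 and 1.22, adjusted p 6.48e-06 and 3.49e-09). Slc16a3, the lactate exporter, averaged 180, 222 and 224 CPM at 0, 30 and 60 min (0.30 and 0.31, adjusted p 0.00358 and 0.000826). Txnip, which lowers glucose uptake, averaged 194 CPM at 0 min, 92.6 CPM at 30 min and 85.5 CPM at 60 min (-1.07 and -1.18, adjusted p 7.86e-08 and 7.98e-09).

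**Figure D4:**
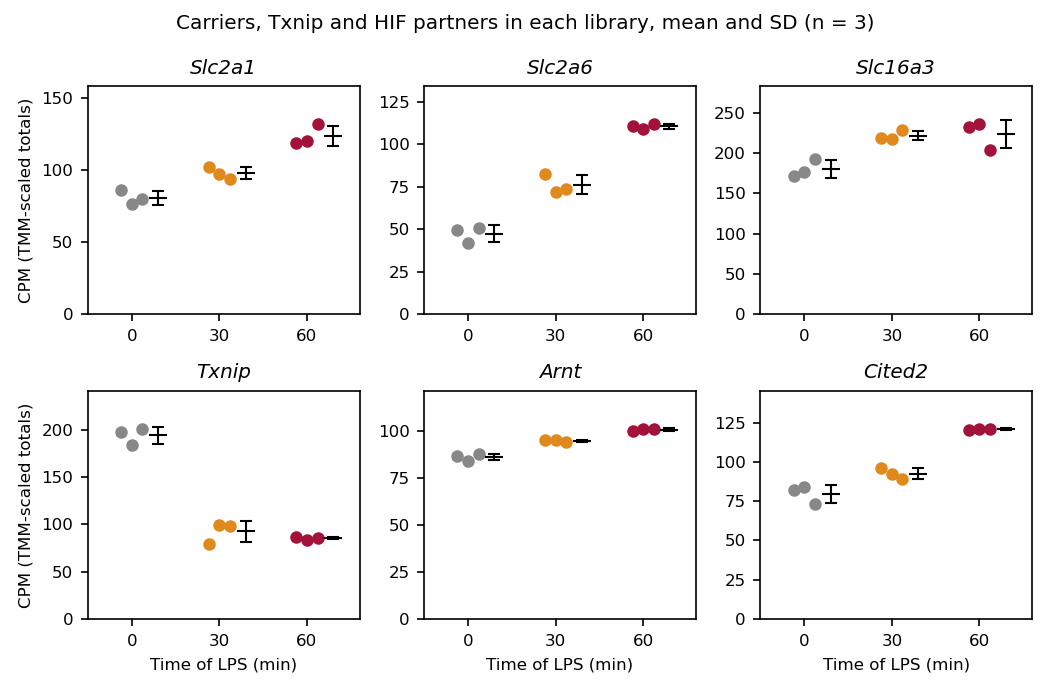
Level of the glucose carriers Slc2a1 and Slc2a6, the lactate carrier Slc16a3, Txnip, and the HIF pathway genes Arnt and Cited2. Dots are the libraries at 0, 30 and 60 min (CPM with TMM-scaled totals), and bars are the mean and SD (n = 3). Txnip is lower in every LPS library, and the other 5 genes are higher in every LPS library than in any 0 min library.

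Of the other components of the HIF pathway 15 of 16 were tested, and 2 were higher and 0 lower at 30 min and 4 higher and 1 lower at 60 min. This is 13.3% higher at 30 min, where 4.84% of all genes were, and 26.7% higher and 6.67% lower at 60 min, where 13.3% and 11.7% of all genes were. Cited2, which competes with Hif1a for its coactivators, rose by a log2 change of 0.22 at 30 min and 0.60 at 60 min (adjusted p 0.0128 and 3.27e-07), and the 30 min call ended without 30 min replicate 1. Arnt, the constant partner of Hif1a, averaged 86.1 CPM at 0 min, 94.7 CPM at 30 min and 101 CPM at 60 min (0.14 and 0.23, adjusted p 0.016 and 0.000107), and its 30 min call ended without 0 min replicate 2 or 30 min replicate 1 or 2, and by total counts alone. Siah1a, a ubiquitin ligase that targets prolyl hydroxylases, rose at 60 min (0.31, adjusted p 0.00811). Ep300, a histone acetyltransferase and coactivator, fell at 60 min (-0.16, adjusted p 0.00419).

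A list of 40 further genes known to be induced by low oxygen had 34 tested, with 11 higher and 0 lower at 30 min and 11 higher and 3 lower at 60 min. The share higher was 32.4% at both times, beside 4.84% and 13.3% of all genes, and the share lower at 60 min was 8.82%, beside 11.7%. By total counts alone the 60 min split was 10 higher and 5 lower. Several of these genes are also textbook LPS response genes, and Slc2a1 is in this list too. Among those with large changes at 60 min were Maff, a small Maf transcription factor (log2 changes 2.73 at 30 min and 4.27 at 60 min), Nos2 (1.69 and 3.50) and Irs2, an adaptor of the insulin receptor (1.58 and 2.06). All 6 changes passed. Nos2, the inducible nitric oxide synthase, was faint, with means of 0.139, 0.457 and 1.62 CPM at 0, 30 and 60 min. Its 30 min call (adjusted p 0.035) ended by limma-voom and without any one of the 0 min replicates or 30 min replicate 1 or 2.

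In neighbouring pathways the shares called at 60 min were near those of all genes or at 0. Of 21 other glycolytic isozymes 10 were tested, with 0 called at 30 min (1 higher without adjustment, 0 by limma-voom or DESeq2) and 2 higher and 1 lower at 60 min: Eno2 (0.37), Adpgk (0.34) and Tigar, which lowers glycolytic flow (-0.18). This is 20.0% higher and 10.0% lower, beside 13.3% and 11.7% of all genes. Of 13 genes of pyruvate entry into the citrate cycle 12 were tested, with 0 called at 30 min (1 higher without adjustment, 0 by limma-voom or DESeq2) and Pdhb (0.19) and Dld (0.15) higher and Pdp2 (-0.16) lower at 60 min, or 16.7% and 8.33%. By total counts alone that split of the pyruvate genes was 1 higher and 3 lower. The Dld call ended without 0 min replicate 2 or 3, or 60 min replicate 1 or 2, and the Pdp2 call without 0 min replicate 3 or 60 min replicate 2. Of the 8 genes of the pentose phosphate pathway, the branch that makes reducing power from glucose, 0 were called at any time by edgeR, DESeq2 or limma-voom, 1 was lower at an unadjusted p under 0.05 at 30 min and 1 at 60 min, and 4 were lower at 60 min by total counts alone.

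The authors' deposited table for 30 min called 12 of the 34 genes higher, of which 11 were called here too. The authors' deposited table gave Pfkl an adjusted p of 0.0347 at 30 min (0.0653 here) and Ndrg1 one of 0.149 (0.02 here). The authors' deposited table for 60 min called 12 higher and 1 lower, all of them called here as well.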

How the data were processed

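Total RNA depleted of ribosomal RNA was sequenced from stranded libraries, per the labels' protocols. The deposited expected counts per gene were estimated by the authors with RSEM 1.3.1 after STAR 2.7.0f and cutadapt 1.18 on mm10, per the submitters' processing notes. Which annotation and strand mode RSEM used is not given in the sources used here, so antisense overlap is uncertain. The authors also deposited DESeq2 tables with a log2 fold change, a p-value, a test statistic (a score) and a mean normalized signal per gene, per the file headers. Their model formula is not given in the sources used here.

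Between 5.04% and 5.32% of the expected counts of a library were not whole, and all were rounded. RSEM divides reads that match several genes. Identifiers, positions (1-based) and lengths come from GENCODE M21, where 55450 of 55450 identifiers were found. The Aldoa identifier with fewer counts (5 to 22 per library) was left out. Genes were kept by filterByExpr (about 10 counts in 3 libraries), which left 14246. CPM use totals scaled by TMM factors (0.9705 to 1.034), and markers use plain totals. All 9 libraries entered 1 quasi-likelihood fit of edgeR 4.0.16 (R 4.3.3) with time as the only term, with Benjamini-Hochberg adjustment over all 14246 genes and calls at 0.05, two-sided. Each SE was taken as |log2 change| divided by the root of the F statistic. The biological coefficient of variation was 5.2%. The fit was tested on simulated data. Alternatives were other scalings and filters, DESeq2 1.42.0, limma-voom (limma 3.58.1), fits of the compared times or of protein-coding genes only, a minimum fold of 1.2, a replicate block and leaving out each library.

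The genes and lists were chosen with earlier results of these data known. By rule, values in every library are given for genes called with an absolute log2 change of at least 0.5, and for Hif1a, Egln1, Vhl, Gapdh, Pkm, Ldha and Slc2a1. Of other lists at most 4 called genes were named by rule; Bhlhe40, Ddit4, Angptl4 and Gm49759 were chosen after their values were seen. Some results are not reported here. Pfkfb3 and Pfkfb4 are given per library as well, chosen after their values were seen. P-values measure the spread between these libraries, which rest on the labels as biological replicates. Sequences shared with other genes were counted as 50-base windows of GENCODE M21 transcripts. Promoter sequences are those of RefSeq.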

Additional observations from a re-analysis of the deposited data

Results flagged for a closer look

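Among the 35 genes, 5 had a change at 60 min that differed from their change at 30 min, tested as 60 min against 30 min in the fit of all libraries (edgeR, adjusted p under 0.05). Of the 34 tested, 5.88% were higher and 8.82% lower, near the 8.87% and 7.65% of all genes. On the log2 scale the difference was 0.37 for Pfkfb3 (95% interval 0.27 to 0.47), 0.12 for Hif1a (0.05 to 0.19), -0.19 for Egln1 (-0.28 to -0.10), -0.19 for P4ha2 (-0.32 to -0.06) and -0.41 for Pfkfb4 (-0.59 to -0.24). Of 19 alternatives, 12 ended the call of P4ha2 and 6 that of Hif1a. The calls of Pfkfb3, Egln1 and Pfkfb4 ended in 1, the minimum fold of 1.2. All 3 libraries of 60 min lay on the stated side of all 3 of 30 min for each of these genes. The same libraries gave the calls, so this separation is not separate evidence. Groups of 3 libraries are too small for the test of single outlying libraries, so none was run.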

How the results depend on the processing

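Of the calls at 30 min, 4 of 12 were kept in all 19 alternatives and 8 in all but the minimum fold; at 60 min these numbers were 6 and 8 of 13, and between 30 and 60 min 0 and 3 of 5. No called change turned its direction. With a minimum fold of 1.2, 290 of all 14246 genes were higher and 96 lower at 30 min. At 60 min these were 762 and 452, and between 30 and 60 min 483 and 248. Of the 34 genes described here, 4 were then higher at 30 min, 6 were higher and 0 lower at 60 min, and 0 were higher and 0 lower between 30 and 60 min. By total counts alone 9 were higher and 0 lower at 30 min, and 7 were higher and 2 lower at 60 min. Between 30 and 60 min 1 was then higher and 5 lower. At 60 min against 0 and 30 min, that scaling moved the median of all genes by -0.07 and -0.04 on the log2 scale. It called 1313 of all 14246 genes higher and 3048 lower at 60 min against 0 min, beside 1891 and 1671 in the main fit. Without a filter on low counts 5 of the genes described here were higher between 30 and 60 min, beside 1491 of all 24185 genes. Leaving out 1 library gave 1 to 4 higher genes between 30 and 60 min: 4 without 30 min replicate 1, and 1 without 30 min replicate 2 or 3 or 60 min replicate 1 or 3. Of all genes tested, 14457 to 14495, these fits called 921 to 1338 higher. The cause of these shifts was not tested, apart from the stricter threshold of the fold. Same-numbered libraries did not deviate together over all genes tested (correlations of -0.064 to 0.006). Such a correlation cannot show a pairing that touches only some genes, so whether numbers pair the samples stays unknown. With the replicate block 11 genes were higher at 30 min, 11 higher and 1 lower at 60 min, and 3 higher and 2 lower between 30 and 60 min. Of all 14246 genes the block called 588 higher and 379 lower at 30 min, and 1720 and 1514 at 60 min. Between 30 and 60 min it called 1156 higher and 952 lower. Calls on changes of about 0.1 to 0.2 lie at the limit of what 3 libraries per time resolve.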

Other observations

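Several further hypoxia-inducible genes moved, chosen here after their values were seen. Bhlhe40, a clock-linked transcription repressor, averaged 49.4 CPM at 0 min, 75.5 CPM at 30 min and 109 CPM at 60 min (log2 changes 0.61 and 1.14), and Ddit4, an inhibitor of the growth kinase mTOR, averaged 10.4, 19.3 and 20.1 CPM (0.90 and 0.95), all called higher by edgeR. Angptl4, a secreted inhibitor of lipoprotein lipase, fell to 7.40 CPM at 60 min, against 11.1 CPM at 0 min (-0.58, adjusted p 0.000204). The locus Gm49759, whose exons lie on the strand of Pkm and cover 15.3% of the exon bases of Pkm, fell to 90.7 CPM at 60 min, against 119 CPM at 0 min (-0.39, adjusted p 6.58e-06), while the log2 difference of Pkm was 0.02. How reads were divided between these overlapping genes was not tested.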
